A study of Mus musculus with 24 samples.

Results

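Cx3cr1, P2ry12, P2ry13, Trem2, Tyrobp, Csf1r and Gpr34 encode surface receptors, and 1 receptor adaptor, by which resting microglia are recognised. These 7 genes were taken by name from the 19962 probe targets of a spatial transcriptomics experiment on mouse brain. Tmem119 and Aif1, which are often listed beside them, were left out because antibodies to their proteins were used to pick the regions. All 7 were measured in each of the 24 regions.

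The regions came from frozen sections of fixed brain, stained for TMEM119 and for IBA1 (the protein of Aif1), and were profiled on the GeoMx platform, in which probes bound to RNA carry tags that are released by light from a chosen region and sequenced. There were 6 groups of 4 regions: MG-cKO males, BMM-cKO males, WT males, MG-cKO females, BMM-cKO females and WT females, where cKO stands for conditional knockout. The study's title names the kinase Lyn and the period after SAH (subarachnoid haemorrhage in this field), and its design calls the WT animals WT-SAH; sham animals were not analysed here. The Cre driver, the age and the number of animals were not given in the sources used here, and no label ties a region to an animal, so the p-values treat each region as a sample and are too small should several regions belong to 1 animal. The male regions shared scan 2 and the female regions shared scan 3, which leaves sex and scan confounded: they cannot be told apart. WT females supplied the 1 female region that was processed on the plate of the males, and the other 11 female regions were on another plate.

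Microglia use these receptors to read their surroundings. CX3CR1 binds fractalkine (Cx3cl1), which neurons carry on their surface. P2RY12 and P2RY13 are G protein-coupled receptors for ADP, and P2RY12 steers microglial processes toward injured cells. GPR34 is a receptor for lysophosphatidylserine. CSF1R binds CSF1 and IL-34, on which microglia depend for survival. TREM2 senses lipids and lipoproteins and signals through TYROBP (DAP12), whose tyrosines are phosphorylated by Src-family kinases. In many injuries and diseases of the mouse brain, microglia lower Cx3cr1, P2ry12 and P2ry13, while Trem2 is kept or raised.

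Upstream sequences were in the RefSeq table (GRCm38.p6) for 4 of the 7 genes, and those 4 are shown. The same 4 passed the test in BMM-cKO males against WT males, 3 lower and Trem2 higher, and no link between sequence and change was tested. Of all tested targets 53.6% passed there, and the calls of P2ry12 and Trem2 depended on single regions. In the same comparison, without the filter described below, 44% of probes to genes that brain has little cause to express passed too. Each line gives the 250 bases before the annotated start, read in the direction of transcription. Capitals mark the letters GAGGAA, searched on both strands, which are part of the site bound by PU.1 (Spi1), a transcription factor that microglia need.

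Cx3cr1: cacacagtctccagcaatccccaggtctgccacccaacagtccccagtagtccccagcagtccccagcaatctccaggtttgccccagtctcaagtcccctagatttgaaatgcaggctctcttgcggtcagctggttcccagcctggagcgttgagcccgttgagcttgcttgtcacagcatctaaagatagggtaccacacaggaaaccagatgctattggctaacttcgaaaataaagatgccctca
P2ry12: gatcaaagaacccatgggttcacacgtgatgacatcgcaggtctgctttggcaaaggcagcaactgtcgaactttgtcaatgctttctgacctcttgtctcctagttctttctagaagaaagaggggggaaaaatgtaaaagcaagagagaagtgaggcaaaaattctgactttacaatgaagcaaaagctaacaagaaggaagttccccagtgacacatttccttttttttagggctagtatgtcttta
P2ry13: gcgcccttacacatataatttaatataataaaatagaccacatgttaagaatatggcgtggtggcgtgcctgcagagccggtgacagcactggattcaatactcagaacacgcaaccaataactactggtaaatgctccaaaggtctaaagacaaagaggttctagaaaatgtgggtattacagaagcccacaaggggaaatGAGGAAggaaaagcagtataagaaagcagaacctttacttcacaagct
Trem2: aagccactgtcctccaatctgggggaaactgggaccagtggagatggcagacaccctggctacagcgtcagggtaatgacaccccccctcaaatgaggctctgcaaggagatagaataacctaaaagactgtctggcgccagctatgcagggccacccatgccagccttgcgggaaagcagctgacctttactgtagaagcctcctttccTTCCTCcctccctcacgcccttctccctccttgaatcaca

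The Cx3cr1 window lay at chr9:120068297-120068546 on the minus strand, and the Trem2 window at chr17:48346151-48346400 on the plus strand. P2ry12 (chr3:59216271-59262985) and P2ry13 (chr3:59207892-59210882) are neighbours on the minus strand with 5388 bases between them. Their windows were chr3:59262986-59263235 and chr3:59210883-59211132. GAGGAA was found 1 time in the P2ry13 window, 48 bases before the start, and 1 time in the Trem2 window, on the opposite strand (printed as TTCCTC), 40 bases before the start. Of the windows of all 32851 genes in the table, 23.3% hold it, so a match in 2 of 4 windows describes these letters and no more. Both ADP receptor windows had 41.6% G and C, against 53.6% for Cx3cr1 and 56.0% for Trem2.

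Levels below are the value of a gene divided by the value of the negative probe NegProbe-WTX, a pool of sequences with no target in the mouse, in the same region. A level of 1 therefore equals the unspecific binding of that pool, and a single probe without a target can lie below or above it. Probes differ in how strongly they bind, so a level orders groups for a gene and not genes by abundance. How many of all targets failed to overlap between the same groups was not counted. A gap between groups therefore describes a gene and does not set it apart from other targets. As a second yardstick, 1194 probes to hair keratin-associated proteins and to receptors for smell, pheromones, trace amines and taste, which brain tissue has little cause to express, were taken as non-brain probes. The central 95% of their mean levels ran from 0.635 to 1.59, with a median of 0.933.

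By that yardstick the receptor signals were weak. Csf1r averaged 1.76 over the 24 regions, above 99.3% of the non-brain probes, and P2ry12 averaged 1.54, above 96.9% of them. Cx3cr1 at 1.25 was above 89.9%, Trem2 at 1.12 above 80.9%, P2ry13 at 1.08 above 76.5% and Tyrobp at 1.03 above 68.0%. Gpr34, at 0.807, was above only 21.8% of the non-brain probes and exceeded the negative probe in 1 of 24 regions. Csf1r alone of the 7 exceeded 1.59 on average, and it alone passed a level of 2 in any region, in 4 of 24.

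**Figure D1:**
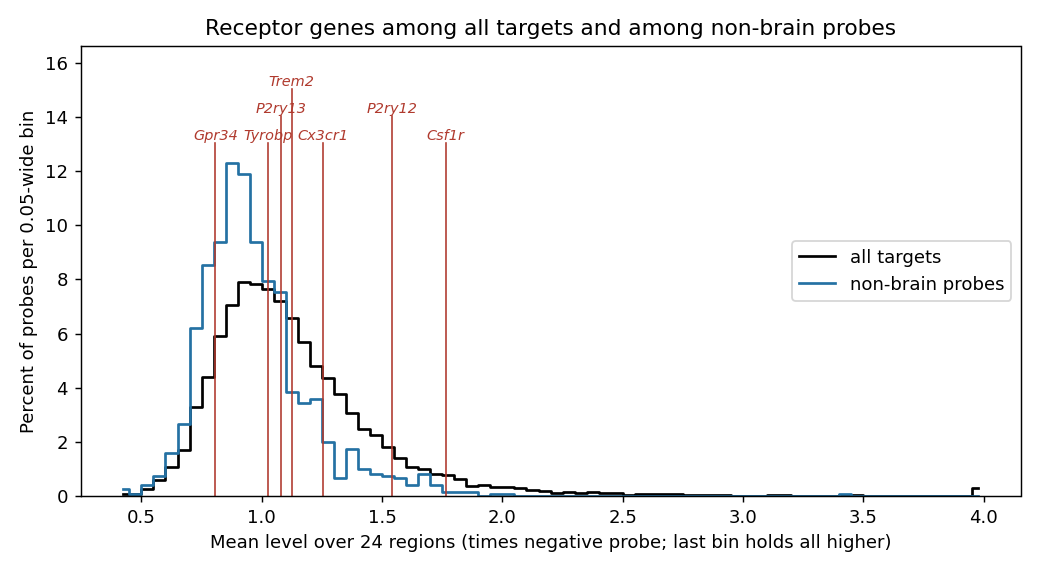
Distribution of the mean level over 24 regions (horizontal axis, times the negative probe; vertical axis, percent of probes per bin) for all 19962 targets (black) and the 1194 non-brain probes (blue), with a red line for each receptor gene. Gpr34, Tyrobp, P2ry13, Trem2 and Cx3cr1 lie in the bulk of the non-brain probes, while P2ry12 and Csf1r lie in the upper tail.

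Each receptor gene was counted many times in every region. Regions held 1839152 to 10779960 tags, as estimated from the whole-number steps of the deposited values and not from deposited counts, and a receptor gene had 57 to 798 tags in a region, which gives a counting error of 13.2% at the lowest and 3.54% at the highest. The median target stood at 1.00 to 1.12 times the negative probe, and 0.902% to 7.99% of targets exceeded 2 times it. BMM-cKO males were the most deeply sequenced group, with 6672793 to 10779960 tags.

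Other microglial genes set the scale. Tmem119, whose protein was stained to choose the regions, averaged 0.810 and exceeded 1 in 0 of 24 regions, and Aif1 averaged 2.05, with 15 of 24 regions above 2. C1qb averaged 1.77, Ctss 1.64, C1qc 1.61 and C1qa 1.57, while Siglech averaged 0.928. Of the macrophage and monocyte markers, Adgre1 (F4/80) averaged 1.63, and Cd68, Itgam, Cd14, Mrc1, Ccr2, Pf4, Ms4a7 and Lyz2 lay between 0.729 and 1.03. The labels call the cell type of every region macrophage, and these levels do not separate macrophages from microglia. Lyn averaged 1.08 and ranged from 0.878 to 1.22 over the regions, with group means between 1.02 (MG-cKO males) and 1.15 (BMM-cKO males), so its level near that of unspecific binding does not check the knockout labels.

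P2ry12, the ADP receptor that guides microglial processes, was above the negative probe in all 24 regions. In males, P2ry12 stood at 1.42, 1.74, 1.85 and 1.66 in the MG-cKO regions, 1.46, 1.56, 1.55 and 1.45 in the BMM-cKO regions, and 1.51, 1.98, 2.00 and 1.68 in the WT regions. In females it stood at 1.30, 1.42, 1.53 and 1.30 in the MG-cKO regions, 1.42, 1.41, 1.28 and 1.42 in the BMM-cKO regions, and 1.62, 1.49, 1.52 and 1.41 in the WT regions. The knockout regions overlapped the WT regions of their own sex in each of the 4 pairings. WT males had the highest group mean and the widest spread (1.79 ± 0.24, SD, n = 4), and in the order of the group means 4 of 5 neighbouring pairs overlapped, BMM-cKO males standing clear of BMM-cKO females.

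P2ry13, the neighbouring ADP receptor gene, split the males and not the females. Its levels were 1.01, 1.22, 1.14 and 1.18 in MG-cKO males, 0.933, 0.898, 0.870 and 0.904 in the BMM-cKO males, and 1.25, 1.27, 1.42 and 1.49 in WT males. The 3 male groups did not overlap, and BMM-cKO males were below the negative probe in each of their 4 regions. By the test given below, 53.6% of all tested targets passed in BMM-cKO males against WT males. The share was 38.5% in MG-cKO against BMM-cKO males and 0.481% in MG-cKO against WT males. These are shares of that test and not of gaps between groups, and P2ry13 did not pass it in MG-cKO against WT males. In females the levels were 1.31, 0.922, 1.01 and 0.978 for MG-cKO, 1.04, 1.08, 1.01 and 1.10 for BMM-cKO, and 1.04, 0.959, 0.923 and 1.02 for WT. Those 3 groups overlapped, and region 1 of the MG-cKO females stood highest among the 12.

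Gpr34, the lysophosphatidylserine receptor, lies on the X chromosome (chrX:13622650-13640859) and gave the lowest signal of the 7. It stood at 0.904, 0.871, 0.871 and 0.804 in MG-cKO males, 0.744, 0.621, 0.721 and 0.662 in the BMM-cKO males, and 0.971, 0.995, 0.937 and 1.07 in WT males. These 3 male groups were also separate, in the same order as for P2ry13. The shares of all tested targets given there describe the test and not such gaps, and Gpr34 was not among the tested targets. In females it stood at 0.716, 0.824, 0.755 and 0.777 for MG-cKO, 0.682, 0.629, 0.680 and 0.829 for BMM-cKO, and 0.965, 0.759, 0.868 and 0.718 for WT, with overlap between all 3.

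Cx3cr1 (chr9:120048683-120068296), the fractalkine receptor, was lower than WT in 3 of the 4 knockout groups without overlap. In males, Cx3cr1 stood at 1.26, 1.58, 1.40 and 1.39 for MG-cKO, 1.21, 1.16, 1.06 and 1.16 for BMM-cKO, and 1.43, 1.65, 1.38 and 1.497 for WT. In females it stood at 1.13, 1.18, 0.951 and 1.07 for MG-cKO, 0.934, 1.12, 1.17 and 1.18 for BMM-cKO, and 1.34, 1.25, 1.32 and 1.28 for WT. BMM-cKO males, MG-cKO females and BMM-cKO females were all below every WT region of their sex, and MG-cKO males overlapped WT males. Of all tested targets, 53.6% passed against WT in BMM-cKO males, 29.8% in MG-cKO females and 2.34% in BMM-cKO females, which are shares of the test and not of gaps. WT males, MG-cKO males and WT females had the 3 highest group means, and the gap between WT females and BMM-cKO males was the only one between neighbouring groups without overlap.

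Csf1r, the receptor for CSF1 and IL-34, had levels of 1.56, 2.12, 1.79 and 2.21 in MG-cKO males, 1.74, 1.84, 1.70 and 1.60 in the BMM-cKO males, and 1.67, 2.12, 2.16 and 1.80 in WT males. Those 3 groups overlapped. In females the levels were 1.49, 1.54, 1.42 and 1.48 for MG-cKO, 1.72, 1.66, 1.57 and 1.66 for BMM-cKO, and 1.78, 1.96, 1.91 and 1.88 for WT. The female groups did not overlap at all, with MG-cKO lowest and WT highest. Between female groups, 29.8% (MG-cKO against WT), 14.6% (MG-cKO against BMM-cKO) and 2.34% (BMM-cKO against WT) of all tested targets passed. These are shares of the test and not of gaps, and Csf1r passed it only in MG-cKO against WT.

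Trem2 (chr17:48346401-48352276), the lipid-sensing receptor, varied least of the 7, with a coefficient of variation of 9.74% over the 24 regions. In males it stood at 1.14, 1.18, 1.19 and 1.20 for MG-cKO, 1.14, 1.23, 1.22 and 1.19 for BMM-cKO, and 0.909, 1.08, 1.20 and 0.980 for WT. In females it stood at 0.877, 1.06, 1.00 and 1.06 for MG-cKO, 1.28, 1.15, 1.05 and 1.05 for BMM-cKO, and 1.26, 1.16, 1.27 and 1.09 for WT. WT males were among the lowest for Trem2, unlike for the other 6 genes, where they had the highest group mean. All 5 neighbouring pairs in the order of its group means overlapped.

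Tyrobp (chr7:30413782-30417582), the adaptor through which TREM2 signals, stood at 0.978, 0.946, 0.912 and 1.26 in MG-cKO males, 0.992, 0.917, 0.987 and 0.858 in the BMM-cKO males, and 0.985, 1.27, 1.37 and 1.04 in WT males. In females it stood at 1.13, 0.857, 0.843 and 1.01 for MG-cKO, 1.07, 0.922, 1.01 and 0.979 for BMM-cKO, and 1.13, 1.04, 0.954 and 1.13 for WT. Every pair of groups compared overlapped, and 11 of 24 regions exceeded the negative probe.

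**Figure D2:**
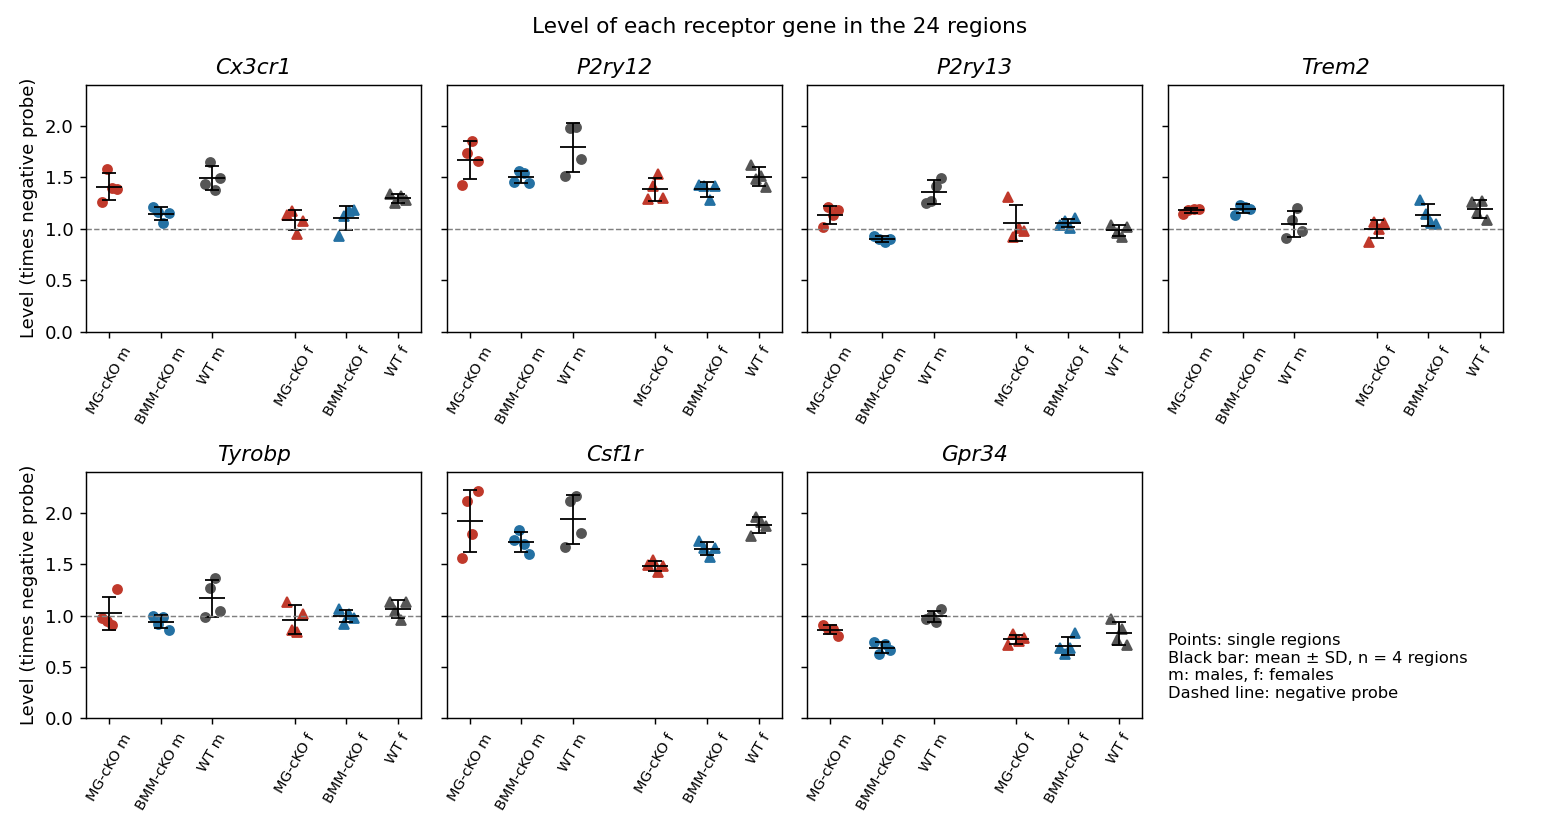
Level of each receptor gene (vertical axis, times the negative probe) in the 24 regions, as points by group, with the mean and SD of 4 regions in black and the negative probe as a dashed line. Csf1r and P2ry12 lie above the line throughout, Gpr34 lies below it in 23 of 24 regions, and P2ry13 of BMM-cKO males lies below it in all 4.

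Changes between groups were fitted with limma across the 9981 targets whose scaled mean was above that of the median target, on log2 values centred on each region's median target. A gene passed at a Benjamini-Hochberg adjusted p under 0.05. Tyrobp and Gpr34 were below that filter on low values, so 5 of the 7 were tested, and the values of those 2 come from the same fit over all 19962 targets. P2ry13 passed the filter narrowly, with a scaled mean of 0.9997 against a cut of 0.9829. WT males, its highest group, lifted it over that cut. Its tests that involve WT males are therefore not independent of the filter, and where it passed them its result without the filter is given too. A change is thus relative to the median target, which itself stood 0.105 higher on the log2 scale in MG-cKO females than in WT females when set against the negative probe, and moved by under 0.1 in the other comparisons of a knockout with WT. The WT regions of a sex serve both knockouts, so the 2 comparisons in a sex are not independent. A lower value can come from fewer microglia in a region or from less RNA per cell, which cannot be told apart here.

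In MG-cKO females against WT females, 4 of the 5 tested receptor genes were lower and 0 were higher, where 11.9% of all tested targets were lower and 17.9% were higher. Csf1r fell by 0.47 ± 0.09 (SE) on the log2 scale, or 1.38-fold, with a limma adjusted p of 0.000191. Cx3cr1 was 1.31-fold lower (log2 change -0.39, limma adjusted p = 0.000786) and P2ry12 was 1.19-fold lower (-0.25, limma adjusted p = 0.0203). Trem2 had a lower signal (-0.38, limma adjusted p = 0.00124). It averaged 1.00 in MG-cKO females, at the level of the negative probe, so its change gives no fold of RNA. For P2ry13 the log2 change was -0.04 ± 0.09. Tyrobp and Gpr34 gave -0.26 and -0.20 in the unfiltered fit, with limma adjusted p of 0.0848 and 0.159. The median of the 5 tested genes was -0.38, beside -0.02 for all tested targets. In the unfiltered fit Csf1r (-0.443), Cx3cr1 (-0.365) and Trem2 (-0.358) lay outside the central 95% of the non-brain probes, -0.32 to 0.18. Without region 1 or 4 of the MG-cKO females or region 1 of the WT females, P2ry12 no longer passed, with limma adjusted p of 0.0577 to 0.0799. It was also lost with regions divided by the negative probe (limma adjusted p = 0.344), without the filter (0.0727) and with plate as a term (0.0577). These folds are of signals that contain unspecific binding: with the negative probe subtracted, the log2 changes of Csf1r and P2ry12 were -1.35 and -0.915 (limma adjusted p = 1.31e-05 and 0.00256), and the other 5 genes could not be tested in that way. Cx3cr1, Trem2 and Csf1r passed whichever region was left out, and on division by the negative probe, with which 121 tested targets were lower and 2811 higher in place of 1190 and 1787.

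Other microglial genes moved alongside. Of 21 tested genes in the list of other homeostatic microglial genes, 8 were lower and 1 higher in MG-cKO females. Ctss, a lysosomal protease, was 1.47-fold lower, and the complement subunits C1qb and C1qa were 1.42-fold and 1.38-fold lower. The gene that was higher, Mef2c, is also a neuronal transcription factor, and it was 3.46-fold higher. Neuronal genes stood apart in the same regions: 14 of 18 were higher, 1 was lower, their median log2 change was 1.13, and their levels summed to 87.7 to 144.6 in MG-cKO females, against 35.6 to 50.3 in WT females. Cx3cl1, the neuronal ligand of CX3CR1, was 2.00-fold higher (limma adjusted p = 4.65e-06). Of 10 astrocyte genes 3 were higher, among them the glutamate transporter gene Slc1a2 (2.14-fold), and their levels summed to 28.8 to 31.4 in MG-cKO females, against 15.25 to 19.6 in WT females. The haemoglobin gene Hba-a1 was 4.48-fold higher. The summed levels of 22 genes of border-associated and infiltrating myeloid cells were 20.7 to 21.9 in MG-cKO females and 20.8 to 21.7 in WT females. As the median level of these genes was 0.932, near the negative probe, their sum cannot show whether such cells differed. The part of these differences in the receptor result was not tested.

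In MG-cKO males against WT males, 0 of 5 receptor genes passed, where 0.441% of tested targets were higher and 0.0401% lower. At an unadjusted p under 0.05 there were 2: P2ry13 with a log2 change of -0.24 ± 0.09 (limma adjusted p = 0.186) and Trem2 with 0.20 ± 0.08 (limma adjusted p = 0.269). Cx3cr1, P2ry12 and Csf1r had changes of -0.07, -0.08 and -0.003, each with an SE of 0.08 to 0.09. Neuronal genes summed to 32.9 to 47.3 in MG-cKO males and 39.2 to 51.3 in WT males, and 0 of 18 passed.

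In BMM-cKO males against WT males, 3 receptor genes were lower and 1 was higher. Targets as a whole moved widely in this comparison, 25.7% lower and 27.8% higher. The non-brain probes ran from -0.47 to 0.72 over their central 95%, and 44% of them passed in the unfiltered fit. Most receptor changes were thus no larger than those of probes to genes foreign to brain. P2ry13 fell by 0.56 ± 0.09 on the log2 scale (limma adjusted p = 4.98e-06, and 2.36e-05 without the filter). In the unfiltered fit, which gave that range, P2ry13 changed by -0.496 and alone of the 7 lay outside it, close to the limit of -0.471. As its BMM-cKO male regions were all below the negative probe, this is a change of signal and gives no fold of RNA. Cx3cr1 was 1.28-fold lower (log2 change -0.36, limma adjusted p = 0.00071) and P2ry12 was 1.17-fold lower (-0.22, limma adjusted p = 0.0229). Trem2 was 1.17-fold higher (0.22, limma adjusted p = 0.0284). Csf1r had a change of -0.14 ± 0.09 (limma adjusted p = 0.166) and Tyrobp, in the unfiltered fit, of -0.22 (limma adjusted p = 0.0829). The Gpr34 signal, which did not exceed the negative probe in 23 of 24 regions, was lower by the unfiltered fit (log2 change -0.44, limma adjusted p = 0.000386), where 44.4% of all targets passed in either direction.

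P2ry13 and Cx3cr1 passed whichever region was left out. P2ry12 lost its call without region 1 or 4 of the BMM-cKO males or region 2 or 3 of the WT males, with limma adjusted p of 0.0517 to 0.0852, and without the filter its log2 change was -0.155 (limma adjusted p = 0.151). With the negative probe subtracted it was -0.715 (limma adjusted p = 0.00705), and Csf1r, at -0.464, passed too (0.0281). Trem2 lost it without region 2, 3 or 4 of the BMM-cKO males or region 1 or 4 of the WT males, with limma adjusted p of 0.0543 to 0.1. Of the 4 comparisons of a knockout with WT, the changes of the 2 neighbouring ADP receptor genes lay furthest apart in this comparison.

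**Figure D3:**
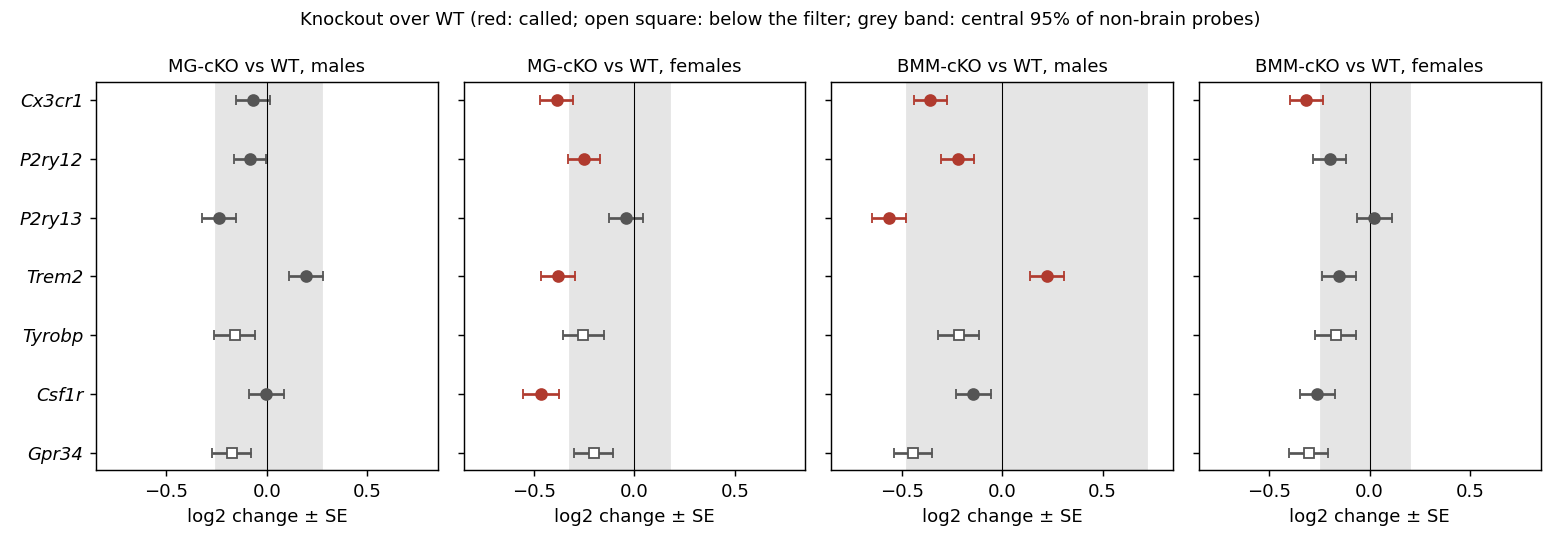
Log2 change of each receptor gene in the 4 comparisons of a knockout with WT (horizontal axis, points with SE; open squares mark the 2 genes below the filter, red marks genes that passed). The grey band is the central 95% of the non-brain probes in the unfiltered fit, and in BMM-cKO males against WT males it spans -0.47 to 0.72. P2ry13 is drawn at -0.56 there, and in the unfiltered fit it was at -0.496, just outside the band.

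The same BMM-cKO male regions differed from WT males in other cell types. Of 21 other homeostatic microglial genes 10 were lower and 3 higher, among them Cst3 (cystatin C) 1.69-fold lower, Sall1, a microglial transcription factor, 1.35-fold lower, and Cebpa, a myeloid transcription factor, 1.57-fold higher. Neuronal genes were lower in 13 of 18 and summed to 25.3 to 28.4 in BMM-cKO males, against 39.2 to 51.3 in WT males. Cx3cl1 was 1.74-fold lower and Apoe, a TREM2 ligand, 1.76-fold lower. Aif1, whose protein was stained to choose the regions, stood at 2.39 to 2.65 in BMM-cKO males and 1.29 to 1.495 in WT males. The part of these differences, and of the greater depth of the BMM-cKO males, in the receptor result was not tested.

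In BMM-cKO females against WT females, Cx3cr1 was the 1 receptor gene of 5 that passed, 1.24-fold lower (log2 change -0.31 ± 0.08, limma adjusted p = 0.0402), where 0.992% of tested targets were lower and 1.35% higher. P2ry12, Trem2 and Csf1r had changes of -0.20, -0.15 and -0.26 with limma adjusted p of 0.199, 0.352 and 0.106, and P2ry13 had 0.02. Tyrobp and Gpr34 gave -0.17 and -0.30 in the unfiltered fit, without passing. The central range of the non-brain probes in that fit was -0.24 to 0.203. Cx3cr1 (-0.313), Gpr34 (-0.304) and Csf1r (-0.259) lay outside it, though none of them passed in that fit. The Cx3cr1 call was lost without region 1 of the BMM-cKO females or without any 1 of the 4 WT female regions, with limma adjusted p of 0.0644 to 0.102. It was also lost without the filter, with division by the negative probe, with plate as a term and with only these 2 groups fitted, where its limma adjusted p was 0.177. Csf1r passed once the negative probe was subtracted, with a log2 change of -0.645 (limma adjusted p = 0.0342). Of the 21 other homeostatic genes, C1qb was lower (1.30-fold) and the other 20 did not pass. Of 18 neuronal genes 2 were higher and 3 lower, with Nrgn 1.79-fold higher and Gad2, Gad1 and Slc32a1, genes of inhibitory neurons, 2.09-fold, 2.07-fold and 1.93-fold lower. Neuronal levels summed to 33.5 to 54.1 in BMM-cKO females and 35.6 to 50.3 in WT females. The sum of the receptor ligands was 21.9 to 140.5 in BMM-cKO females (median 25.5), where 1 region stood apart, against 18.3 to 22.1 in WT females. The part of these values in the Cx3cr1 result was not tested.

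Setting the 2 knockouts against each other, MG-cKO males had 2 receptor genes higher than BMM-cKO males, where 18.1% of tested targets were higher and 20.4% lower. P2ry13 had a higher signal (log2 change 0.32 ± 0.09, limma adjusted p = 0.00412) and Cx3cr1 was 1.22-fold higher (0.29 ± 0.08, limma adjusted p = 0.00759), and both passed whichever region was left out. The Gpr34 signal, below the negative probe in all 8 of these regions, was higher by the unfiltered fit (log2 change 0.27, limma adjusted p = 0.0358), where 28.2% of all targets passed. P2ry12, Csf1r and Trem2 had changes of 0.14, 0.14 and -0.03. By the unfiltered fit the central range of the non-brain probes was -0.535 to 0.343, and 25.6% of them passed. There 0 receptor genes lay outside that range, with P2ry13 at 0.269 and Cx3cr1 at 0.232. The receptor changes were thus no larger than those of probes to genes foreign to brain. Selplg, which encodes the selectin ligand PSGL-1, was 1.29-fold higher in MG-cKO males, and of the 21 other homeostatic genes 9 were higher and 3 were lower there.

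In MG-cKO females against BMM-cKO females, limma passed 0 of 5 receptor genes, where 11.0% of tested targets were higher and 3.54% lower. Trem2 with -0.23 ± 0.08 (limma adjusted p = 0.0707) and Csf1r with -0.21 ± 0.09 (limma adjusted p = 0.117) were the 2 with an unadjusted p under 0.05. Csf1r passed after subtraction of the negative probe, with a log2 change of -0.703 (limma adjusted p = 0.00898). Without region 2 of the MG-cKO females, or region 3 or 4 of the BMM-cKO females, 1 receptor gene passed. Neuronal genes summed to 87.7 to 144.6 in MG-cKO females and 33.5 to 54.1 in BMM-cKO females.

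Males and females were compared within each genotype, with scan 2 and scan 3 standing behind the same split. In MG-cKO regions all 5 tested receptor genes were higher in males, where 6.06% of tested targets were higher and 13.7% lower. Cx3cr1 was 1.45-fold higher (log2 change 0.53 ± 0.08, limma adjusted p = 1.88e-05), Csf1r 1.43-fold (0.51 ± 0.09, limma adjusted p = 6.82e-05) and P2ry12 1.34-fold (0.42 ± 0.08, limma adjusted p = 0.00031). Trem2, at 1.00 on average in MG-cKO females, had a higher signal in males that gives no fold of RNA (0.39 ± 0.08, limma adjusted p = 0.00111). P2ry13 was 1.21-fold higher (0.27 ± 0.09, limma adjusted p = 0.0237). The first 4 passed whichever region was left out, while P2ry13 was lost without region 2 or 4 of the MG-cKO males or region 2, 3 or 4 of the MG-cKO females, with limma adjusted p of 0.0535 to 0.0862. P2ry13 was also lost on division by the negative probe (limma adjusted p = 0.321), with quantile normalization (0.0666), without the filter (0.152) and with plate as a term (0.572). Plate as a term also lost Cx3cr1, P2ry12 and Trem2 (limma adjusted p = 0.0641, 0.278 and 0.298), while Csf1r passed. Set against the negative probe, the median target was 0.164 lower in males on the log2 scale. Cx3cr1, Csf1r, P2ry12 and Trem2 still passed on that division, with smaller log2 changes of 0.378, 0.359, 0.268 and 0.239. After subtraction of the negative probe the log2 changes were 1.63 for Csf1r and 1.56 for P2ry12. Unfiltered changes of Cx3cr1 (0.439) and Csf1r (0.42) lay outside the central range of the non-brain probes, -0.243 to 0.37. Those of P2ry12 (0.329), Trem2 (0.3) and P2ry13 (0.179) lay inside it. Of the 21 other homeostatic genes 10 were higher and 1 lower, with Ctss 2.01-fold higher and C1qa 1.66-fold higher. Neuronal genes were lower in males in 12 of 18, with sums of 32.9 to 47.3 in MG-cKO males and 87.7 to 144.6 in MG-cKO females, and their part in the result was not tested.

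In WT regions, P2ry13 had a higher signal in males (log2 change 0.47 ± 0.09, limma adjusted p = 0.000116), and P2ry12 and Cx3cr1 were 1.19-fold and 1.16-fold higher (limma adjusted p = 0.0136 and 0.0393). This made 3 of 5 higher and 0 lower, where 16.3% of tested targets were higher and 23.2% lower. Trem2 had a change of -0.18 ± 0.08 (limma adjusted p = 0.088) and Csf1r of 0.05 ± 0.09. Without the filter Trem2 passed as lower in males, at -0.265 (limma adjusted p = 0.0151). By the unfiltered fit the central range of the non-brain probes was -0.604 to 0.439, and 38.5% of them passed. There 0 receptor genes lay outside that range, with P2ry13 at 0.386, P2ry12 at 0.172 and Cx3cr1 at 0.131. These changes were thus no larger than those of probes to genes foreign to brain. P2ry13 passed whichever region was left out, and without the filter (limma adjusted p = 0.000814). P2ry12 was lost without region 2 of the WT males or region 4 of the WT females (limma adjusted p 0.0526 and 0.0546), and Cx3cr1 when any region but region 3 of the WT males was left out (0.0516 to 0.129). Both were also lost without the filter (limma adjusted p = 0.125 for P2ry12 and 0.247 for Cx3cr1) and with plate as a term (0.42 and 0.374), and Cx3cr1 on division by the negative probe (0.0647). With the negative probe subtracted the log2 change of P2ry12 was 0.915 (limma adjusted p = 0.00177). Neuronal genes, at 39.2 to 51.3 in WT males and 35.6 to 50.3 in WT females, overlapped. Aif1 stood at 1.29 to 1.495 in WT males and 2.30 to 2.56 in WT females, the opposite direction to those 3 genes.

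In BMM-cKO regions, P2ry12 was the 1 gene of 5 that passed, 1.17-fold higher in males (log2 change 0.23 ± 0.08, limma adjusted p = 0.0482), where 5.66% of tested targets were higher and 11.2% lower. Cx3cr1, Trem2, Csf1r and P2ry13 had changes of 0.17, 0.19, 0.17 and -0.12. The unfiltered change of P2ry12 was 0.214, inside the central range of the non-brain probes, -0.217 to 0.296. The P2ry12 call was lost when any region but region 1 of the BMM-cKO females was left out, with limma adjusted p of 0.0579 to 0.136, and also without the filter (0.129) and on division by the negative probe (0.388). With the negative probe subtracted P2ry12 and Csf1r both passed, with log2 changes of 0.818 and 0.548 (limma adjusted p = 0.00654 and 0.0224). With plate as a term, which leaves the 1 WT female region on the males' plate to separate plate from sex, 1 receptor gene passed in MG-cKO regions (Csf1r), 1 in WT regions (P2ry13) and 0 in BMM-cKO regions.

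Whether the effect of a knockout differed between the sexes was tested directly, as the change in males minus the change in females. For MG-cKO, 3 receptor genes differed, all with the more positive change in males, where 12.8% of tested targets were higher and 14.2% lower in this difference. Trem2 differed by 0.58 ± 0.12 (limma adjusted p = 0.00104), with a change of 0.20 in males and -0.38 in females. Csf1r differed by 0.46 ± 0.12 (limma adjusted p = 0.00719) and Cx3cr1 by 0.32 ± 0.12 (limma adjusted p = 0.0429). P2ry12 and P2ry13 differed by 0.17 and -0.20 without passing. The central range of the non-brain probes in the unfiltered fit was -0.33 to 0.535. Trem2, at 0.566 in that fit, lay outside the range, and Csf1r (0.452) and Cx3cr1 (0.308) lay inside it. Trem2 and Csf1r passed whichever region was left out, whereas Cx3cr1 was lost in 12 of 16 omissions, with limma adjusted p of 0.0512 to 0.115: every WT female region, regions 1, 3 and 4 of the WT males, regions 2, 3 and 4 of the MG-cKO males and regions 3 and 4 of the MG-cKO females. The Cx3cr1 difference passed with a pseudocount of 10 (limma adjusted p = 0.0455) and did not pass under the other 6 settings that tested it, namely values as deposited (limma adjusted p = 0.0596), division by the negative probe (0.281), quantile normalization (0.101), no filter (0.0876), plate as a term (0.0614) and only the groups compared (0.0544). Csf1r was lost when regions were divided by the negative probe (limma adjusted p = 0.085), and with it subtracted differed by 1.26 (limma adjusted p = 0.000879).

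For BMM-cKO, P2ry13 and Trem2 differed in opposite directions, where 24.2% of tested targets were higher and 21.5% lower. P2ry13 differed by -0.59 ± 0.12 (limma adjusted p = 0.000334, and 0.00137 without the filter), with a change of -0.56 in males and 0.02 in females. Trem2 differed by 0.38 ± 0.12 (limma adjusted p = 0.0122), with a change of 0.22 in males and -0.15 in females. Both passed whichever region was left out, and Trem2 was lost on division by the negative probe (limma adjusted p = 0.0614). Cx3cr1 and P2ry12 differed by -0.04 and -0.02, and Csf1r by 0.12, without passing. The central range of the non-brain probes in the unfiltered fit was -0.513 to 0.852. P2ry13, at -0.521 in that fit, lay just outside the range, and Trem2 (0.441) lay inside it. Both sexes use their own WT regions, so a low or high WT level enters these differences: P2ry13 averaged 1.36 ± 0.12 in WT males and 0.986 ± 0.055 in WT females, and Trem2 averaged 1.04 ± 0.13 in WT males and 1.19 ± 0.09 in WT females (SD, n = 4 each).

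The receptor genes varied together only in part. Over the 24 regions, which share scans, plates and groups, Pearson's r of the centred log2 values of the 21 pairs ran from -0.389 (P2ry13 with Trem2) to 0.77 (P2ry12 with Csf1r), with a median of 0.443 and 19 pairs above 0. With each group's mean removed, r ran from -0.404 to 0.606 with a median of 0.0783. Trem2 and its adaptor Tyrobp gave 0.14 over the regions, and the 2 neighbouring ADP receptor genes gave 0.443 over the regions and -0.0149 within groups. Near the negative probe a weak correlation is no finding.

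Among the 5 genes whose pattern was most like the mean of the 5 tested receptors, each scaled to unit SD, were the microglial genes C1qb (r = 0.952), Ctss (0.946), C1qc (0.935) and C1qa (0.869). With each group's mean removed, r was 0.603 for C1qb, 0.733 for Ctss, 0.589 for C1qc and 0.391 for C1qa. Taken singly, Cx3cr1 was most like C1qb (0.897), P2ry12 and Csf1r were most like Ctss (0.893 and 0.892), P2ry13 was most like Nipsnap3b (0.9) and Trem2 most like Rslcan18 (0.822). These are descriptions over 24 regions in 6 groups, and nothing was tested from them.

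**Figure D4:**
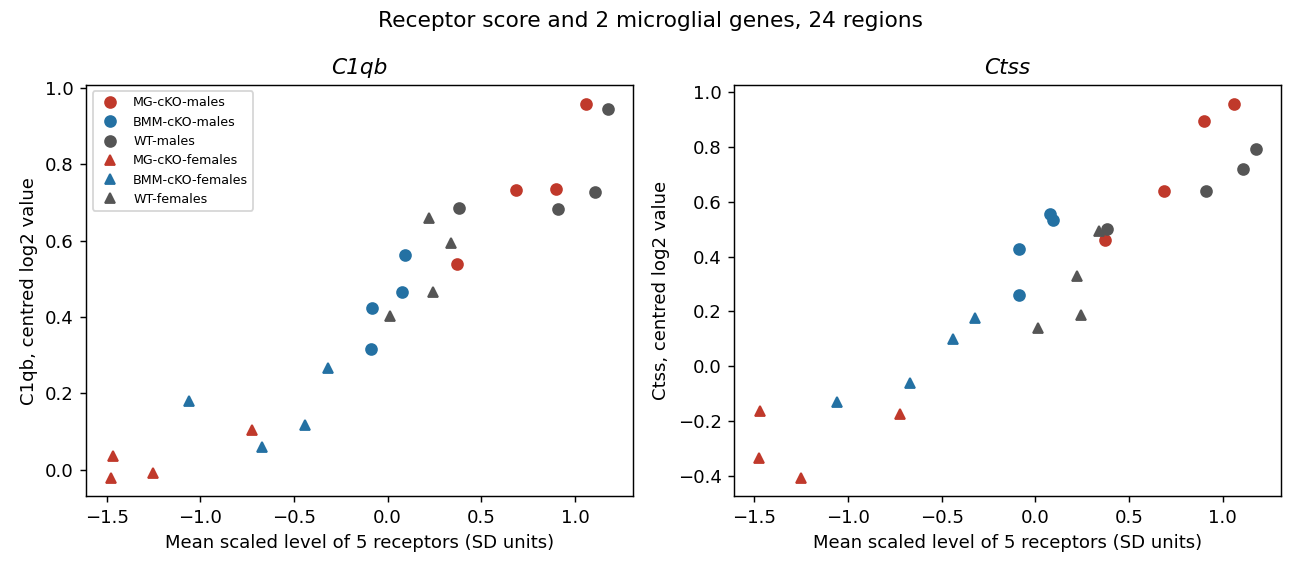
Mean scaled level of the 5 tested receptor genes (horizontal axis, SD units) against the centred log2 value of C1qb and of Ctss (vertical axes) in the 24 regions, coloured by genotype, circles for males and triangles for females. MG-cKO females and BMM-cKO females lie at the low end of both axes, and MG-cKO males and WT males at the high end.

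The other genes of these pathways gave a mixed picture. Of the receptor ligands and the enzymes that form ligands, 8 were tested, and 1 was higher and 1 lower in MG-cKO females, 1 higher and 2 lower in BMM-cKO males, 1 higher (Clu, another TREM2 ligand, 1.91-fold) in BMM-cKO females, and 0 passed in MG-cKO males, each against WT of the same sex. Of all tested targets, 29.8% passed in MG-cKO females, 53.6% in BMM-cKO males, 2.34% in BMM-cKO females and 0.481% in MG-cKO males. Entpd2, which cleaves ATP toward ADP, was 1.24-fold lower in MG-cKO females and 1.30-fold higher in BMM-cKO males. Of 16 tested genes of receptor signalling, MG-cKO females had 4 higher and 3 lower, and there were 5 higher and 6 lower in the BMM-cKO males, and 2 higher in BMM-cKO females. Vav1, an exchange factor downstream of TREM2 and TYROBP, was 1.46-fold higher in the BMM-cKO males, and Gnai2, the G protein subunit that CX3CR1 and P2RY12 couple to, was 1.56-fold higher in BMM-cKO females. Of 10 tested genes linked to disease-associated microglia, a state in which Trem2 is raised, 1 was higher in MG-cKO females (Ctsb, a lysosomal protease, 1.75-fold), 3 were higher and 4 lower in BMM-cKO males (Igf1 1.59-fold higher and Fth1 1.57-fold lower among them), and 1 was higher in BMM-cKO females (Ctsl, 1.36-fold). Of 4 tested genes of border-associated and infiltrating myeloid cells, Stab1, a scavenger receptor, was 1.25-fold lower in MG-cKO females and 1.31-fold higher in BMM-cKO males, and the other 3 did not pass in either.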

How the data were processed

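GeoMx probe signals of 24 mouse brain regions were measured, 4 in each of 6 groups of the labels. The deposited signal values are whole multiples of 1 step per region (99.985% or more of targets within 0.01), and their geometric mean was equal within a group and ran from 105.92 (WT females) to 388.2 (BMM-cKO males) between groups, so the authors appear to have scaled regions group by group; the software and build were not given in the sources used here. Each value was divided by NegProbe-WTX of its region for levels. For tests, log2(signal + 1) was centred on each region's median over tested targets and fitted with limma 3.58.1 (lmFit, eBayes with trend) in R 4.3.3, with 1 coefficient per group over all 24 regions, 11 contrasts and Benjamini-Hochberg adjustment. After scaling regions to a common geometric mean, the 9981 of 19962 targets with a mean over that of the median target were tested. The fit was tested on simulated data. Counting errors cover counting only; PCR copies are not independent molecules unless merged.

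The receptor genes and the gene lists were chosen with earlier results of these data known. Named genes are the 7 receptors, up to 4 passing genes per list and comparison by absolute log2 change, and the targets most correlated with the receptors, of which the text gives a part. Alternatives were the scaling, filter, pseudocount, background subtraction, plate, groups fitted and left-out regions. Of 6 further tables, 5 repeat columns of the full table, and 12 columns of the other could not be tied to a labelled region; none was used. Positions and upstream sequences are from RefSeq (GRCm38.p6), used for names and sequence only.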

Additional observations from a re-analysis of the deposited data

Results flagged for a closer look

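P2ry12 in region 3 of the BMM-cKO females stood at 1.28 times the negative probe, apart from the other 3 regions of its group at 1.41 to 1.42. It was the 1 such region among 42 groups of 4 checked (7 genes in 6 groups), where chance flags about 1 in 20.

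Of 10 differences between the sexes in the effect of a knockout, 5 passed limma's test. For MG-cKO against WT, the change in males minus that in females was 0.318 for Cx3cr1, 0.576 for Trem2 and 0.463 for Csf1r on the log2 scale. For BMM-cKO against WT it was -0.587 for P2ry13 and 0.375 for Trem2. Of all tested targets 27.1% passed in the MG-cKO difference and 45.7% in the BMM-cKO difference. The Cx3cr1 call was lost in 12 of 16 omissions of 1 region. Sex cannot be told apart from scan in any of them.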

How the results depend on the processing

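No log2 change that passed under either setting turned its direction except with the values as deposited, whose group-wise scaling shifted the median of all tested targets by 0.318 (MG-cKO males), 0.303 (MG-cKO females), 1.49 (BMM-cKO males) and 0.639 (BMM-cKO females) against WT. There the log2 changes were 0.237 (Cx3cr1), 0.223 (P2ry12) and 0.304 (Csf1r) in MG-cKO males, 0.0736 (P2ry12) and 0.282 (P2ry13) in MG-cKO females, 1.14 (Cx3cr1), 1.28 (P2ry12), 0.936 (P2ry13) and 1.36 (Csf1r) in BMM-cKO males, and 0.327 (Cx3cr1), 0.443 (P2ry12), 0.488 (Trem2) and 0.38 (Csf1r) in BMM-cKO females, each against WT. In MG-cKO against BMM-cKO males they were -0.906 (Cx3cr1), -1.05 (P2ry12), -0.868 (P2ry13) and -1.05 (Csf1r), in BMM-cKO males against females 1.09 (P2ry13), and in the BMM-cKO difference between sexes 0.816 (Cx3cr1), 0.835 (P2ry12) and 0.271 (P2ry13). The receptor genes passing there numbered 4 in MG-cKO males and 1 in MG-cKO females, and 5 each in BMM-cKO females, both comparisons of MG-cKO with BMM-cKO, BMM-cKO males against females and the BMM-cKO difference between sexes.

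Divided by the negative probe, the passing receptor genes numbered 0 in BMM-cKO females and in BMM-cKO males against females, and 1 in each difference between sexes. With the negative probe subtracted only P2ry12 and Csf1r could be tested, and 2 passed in MG-cKO females, BMM-cKO males, MG-cKO males against females and BMM-cKO males against females, 1 in MG-cKO against BMM-cKO females, WT males against females and the MG-cKO difference between sexes, and 0 in MG-cKO against BMM-cKO males and the BMM-cKO difference. Without the filter 0 passed in BMM-cKO females and in BMM-cKO males against females. With plate as a term 0 passed in BMM-cKO females and BMM-cKO males against females, and 1 each in WT and MG-cKO males against females. With only the groups compared 0 passed in BMM-cKO females, and with quantile normalization 4 passed in MG-cKO against BMM-cKO males. The cause was not tested.

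Leaving out 1 region at a time, passing genes numbered 0 to 0 (MG-cKO males against WT, 0 as reported), 3 to 4 (MG-cKO females, 4), 2 to 3 (BMM-cKO males, 4; 2 without region 4 of the BMM-cKO males), 0 to 1 (BMM-cKO females, 1), 2 to 2 (MG-cKO against BMM-cKO males, 2), 0 to 1 (the same in females, 0), 1 to 4 (WT males against females, 3), 4 to 5 (MG-cKO, 5), 0 to 2 (BMM-cKO, 1), 2 to 3 (MG-cKO difference, 3) and 2 to 2 (BMM-cKO difference, 2).

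Over all tested targets, higher and lower calls against WT were 44 and 4 in MG-cKO males (8039 and 0 as deposited, 2 and 0 by the negative probe, 97 and 36 by quantiles, 5 and 3 with the groups alone), 1787 and 1190 in MG-cKO females (7066 and 18 as deposited), 2779 and 2568 in BMM-cKO males (9966 and 0 as deposited), and 135 and 99 in BMM-cKO females (9910 and 7 as deposited, 259 and 27 by the negative probe, 4 and 7 with the groups alone). The planned edgeR test on whole tags was not run, since the deposited unit did not allow it. No paired analysis was possible because replicate numbers follow the order of the records and pair no regions.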
